A study of Mus musculus with 10 samples.

Results

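Imprinted genes outside the IGF axis were followed in the mandibular prominence (MNP), the paired swelling of the first pharyngeal arch that forms the lower jaw. The genes were taken by name from a list of 42 mouse imprinted genes, and 36 of them have transcripts in the files, out of 33641 gene symbols. The list was drawn up with earlier results of these data known, so the counts of genes that differ are a description. The 6 others, the noncoding RNAs Meg3, Rian, Mirg, H19, Kcnq1ot1 and Airn, are not analysed here. Of the 36 genes, 19 are paternally expressed, 16 are maternally expressed, and Gnas makes products from both alleles. All 19 paternally expressed genes are marked in the list as widely imprinted. Of the 16 maternally expressed genes, 11 are marked as imprinted in some tissues only, and 5 as widely imprinted. Whether the 11 are imprinted in the MNP was not tested.

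Polyadenylated RNA was sequenced from MNPs of CD1 embryos at embryonic day 10.5. The genotypes were wild-type (WT), Hand2 f/f; Wnt1-Cre+ (Hand2 cKO) and Wnt1-Cre+ with both Gli2 f/f and Gli3 f/f (Gli2/3 cKO). Wnt1-Cre removes floxed alleles in the neural crest lineage and not in epithelium, mesodermal core, vessels or blood, so a whole MNP keeps cells with intact alleles. 6 libraries were used: WT 3 and WT 4, Hand2 cKO 1 to 3, and Gli2/3 cKO 3, which has no replicate. The other 4 samples in the labels were not analysed here. The sources used here do not say whether a library holds 1 embryo or several, so p-values measure the spread between these libraries.

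An imprinted gene is transcribed mainly from 1 parental copy. In most cases that copy is chosen by DNA methylation laid down in the egg or sperm. The methylation is kept through later cell divisions by factors such as ZFP57 and TRIM28. Most imprinted genes lie in clusters, in which a single control region sets the active copy of several genes. Many act on embryonic growth: paternally expressed genes often promote it and maternally expressed genes often restrain it. The libraries do not separate the alleles, so the values below are totals over both copies, and a loss of imprinting cannot be told apart from a change in transcription. In bulk tissue, fewer cells of a type and less RNA per cell cannot be told apart either.

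Promoters of 4 genes that were lower in Hand2 cKO are shown because Hand2 is a basic helix-loop-helix factor, a class that binds the E-box, CANNTG. Each run covers 250 bases before to 50 after the RefSeq start, written along the gene's strand on GRCm38.p6, with E-boxes in capitals. The positions are chr10:13090582-13090881 (+) for Plagl1, chr12:109452573-109452872 (+) for Dlk1, chr7:6730370-6730669 (-) for Peg3 and chr7:6696383-6696682 (-) for Zim1.
Plagl1: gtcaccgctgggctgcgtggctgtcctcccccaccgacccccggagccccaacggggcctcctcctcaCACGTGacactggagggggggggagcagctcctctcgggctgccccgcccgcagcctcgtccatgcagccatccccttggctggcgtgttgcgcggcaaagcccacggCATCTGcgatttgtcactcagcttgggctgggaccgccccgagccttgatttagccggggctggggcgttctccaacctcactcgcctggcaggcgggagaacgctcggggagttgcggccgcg
Dlk1: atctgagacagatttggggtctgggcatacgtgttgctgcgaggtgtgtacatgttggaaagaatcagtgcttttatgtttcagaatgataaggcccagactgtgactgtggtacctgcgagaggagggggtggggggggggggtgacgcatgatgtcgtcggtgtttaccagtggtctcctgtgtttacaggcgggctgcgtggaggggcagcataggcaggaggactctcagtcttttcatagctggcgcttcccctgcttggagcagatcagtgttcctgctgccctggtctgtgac
Peg3: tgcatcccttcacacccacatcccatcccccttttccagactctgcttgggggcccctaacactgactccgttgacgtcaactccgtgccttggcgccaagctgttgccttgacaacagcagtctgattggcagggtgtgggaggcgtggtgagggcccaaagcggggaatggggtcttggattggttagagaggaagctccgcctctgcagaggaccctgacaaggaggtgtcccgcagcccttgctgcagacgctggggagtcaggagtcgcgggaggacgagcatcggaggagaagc
Zim1: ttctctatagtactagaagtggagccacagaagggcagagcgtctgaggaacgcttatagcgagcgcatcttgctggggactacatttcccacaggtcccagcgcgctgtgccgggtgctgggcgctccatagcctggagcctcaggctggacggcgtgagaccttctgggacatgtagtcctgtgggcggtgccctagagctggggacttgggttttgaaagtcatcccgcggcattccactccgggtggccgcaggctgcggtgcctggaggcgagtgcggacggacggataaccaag

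The Plagl1 window holds 2 E-boxes, CACGTG and CATCTG, and the other 3 windows hold none. CANNTG reads the same on both strands, and 72.3% of 32851 promoter windows of this length hold at least 1. Windows were found for 29 of the 36 genes. Among the lower genes described below, 3 of 7 windows hold an E-box, against 29 of 39 windows of the other imprinted genes. The Peg3 and Usp29 starts lie 164 bases apart on opposite strands, and their windows share 263 bases. The hexamer TGCCGC, a core of the ZFP57 site, was searched on both strands and occurs in 11 of 46 windows of imprinted genes and in 11.6% of all windows. The hexamer holds a CpG, and the windows of imprinted genes had a median of 16 CpG against 7 over all windows. The part of CpG content in these shares was not tested. Windows of a gene can overlap, as those of Mest do, and each is counted. A match is a description of the letters, and absence from a window says nothing of sites elsewhere.

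The libraries held 21420197 to 53326697 estimated counts. The Hand2 level in CPM, the count scaled to library size, was 174 and 209 in WT and 13.4, 25.4 and 15.6 in Hand2 cKO. In Gli2/3 cKO, Gli2 was at 58.3 CPM against 122 and 105 in WT, and Gli3 at 80.1 CPM against 176 and 145. The 10 neural crest mesenchyme markers summed to 1566 to 1853 CPM over the libraries, and each was detected. The 10 erythroid markers summed to 2633 and 12285 CPM in WT, 3878, 8131 and 3688 in Hand2 cKO, and 3461 in Gli2/3 cKO 3. Y-linked genes summed to 183 CPM in WT 4, 121 in Hand2 cKO 2 and 207 in Gli2/3 cKO 3, and to 3.69 to 5.06 CPM in the other 3 libraries. Levels in Hand2 cKO 2 fell with transcript length, by 0.36 on the log2 scale per doubling, against slopes of 0.0031 to 0.14 in the other libraries. The part of these features in the results was not tested. Values without each library are given where they bear on a result.

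In Hand2 cKO against WT, 8 of the 36 imprinted genes were lower at an unadjusted p below 0.05 and 0 were higher. They lie in 4 clusters: Plagl1; Dlk1, Rtl1 and Dio3 of the Dlk1-Dio3 cluster; Peg3, Usp29 and Zim1 of the Peg3 cluster; and Magel2 of the Snrpn cluster. Over all 17477 genes tested, 4.02% were lower and 2.44% higher at that level. By edgeR's quasi-likelihood test with Benjamini-Hochberg adjustment over all genes and a fold above 1.5, 0 of the 36 and 0.0114% of all genes were called. By DESeq2 at the same thresholds 7 were lower and 0 higher, against 0.875% and 0.208% of all genes, and Peg3 was the gene of the 8 that it did not call. All 3 Hand2 cKO libraries lay below both WT libraries for 11 imprinted genes and above both for 2, where 15.7% and 15.3% of all genes did so. Without each library in turn, between 7 and 11 were lower at an unadjusted p below 0.05 and 0 were higher, while the share of all genes lower ran from 1.57% without WT 4 to 5.48% without Hand2 cKO 2, where the largest count was found.

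**Figure D1:**
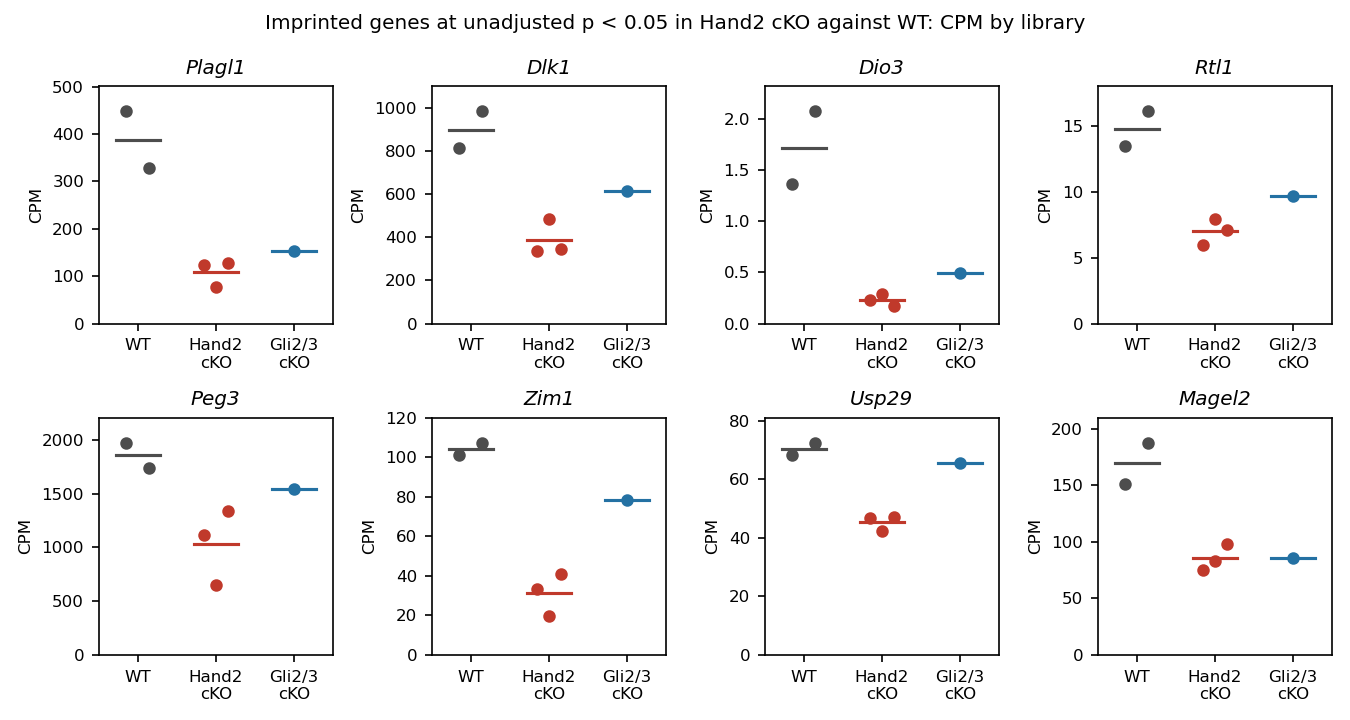
CPM per library of the 8 imprinted genes at an unadjusted p below 0.05 in Hand2 cKO against WT, on linear axes from 0. Points are libraries and lines are group means. In each panel the 3 Hand2 cKO libraries sit below both WT libraries.

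Plagl1 encodes a zinc finger factor that regulates other imprinted genes and lies on chromosome 10 at 13060504 to 13131694 (mm10, + strand). Its level was 448 CPM in WT 3 and 329 in WT 4, and 123, 77.9 and 128 CPM in Hand2 cKO 1 to 3. The highest Hand2 cKO library was thus below the lower WT library. The log2 fold change was -1.82 ± 0.27 (SE), with an adjusted p of 0.169 by edgeR and 2.12e-07 by DESeq2. Gli2/3 cKO 3 held 152 CPM, also below both WT libraries, at a log2 fold change of -1.35 ± 0.39. Neither edgeR nor DESeq2 called Plagl1 in Gli2/3 cKO against WT. In Hand2 cKO against WT, Plagl1 was called by edgeR without Hand2 cKO 2, at a log2 fold change of -1.64 and an adjusted p of 0.0482.

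The Dlk1-Dio3 cluster on chromosome 12 holds 3 paternally expressed coding genes, and all 3 were lower at an unadjusted p below 0.05 in Hand2 cKO, while Dio3 alone was in the single Gli2/3 cKO library. Dlk1, at 109452823 to 109463336, encodes a transmembrane protein related to Notch ligands that holds precursor cells back from differentiation. It stood at 814 and 982 CPM in WT and at 338, 485 and 344 CPM in Hand2 cKO. The groups did not overlap, and the log2 fold change was -1.21 ± 0.22 with an adjusted p of 0.328 by edgeR and 0.000478 by DESeq2. Without Hand2 cKO 2 it was -1.41, with an adjusted p of 0.0385 by edgeR.

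Rtl1, at 109589193 to 109600330 on the - strand, is a retrotransposon-derived gene needed in placental vessels. It stood at 13.5 and 16.1 CPM in WT and at 5.99, 7.92 and 7.10 CPM in Hand2 cKO. The log2 fold change was -1.08 ± 0.20. Its adjusted p was 0.332 by edgeR and 0.00363 by DESeq2. Several microRNA genes lie opposite Rtl1, and the counting may not have separated the strands. Dio3, at 110279068 to 110281097, encodes the deiodinase that inactivates thyroid hormone. It was near the limit of detection, at 1.36 and 2.08 CPM in WT and 0.23, 0.29 and 0.17 CPM in Hand2 cKO, with 7 to 70 counts per library. Its log2 fold change of -2.89 ± 0.42 had an adjusted p of 0.167 by edgeR and 0.000560 by DESeq2. In Gli2/3 cKO 3 Dlk1 stood at 615 CPM, Rtl1 at 9.68 CPM and Dio3 at 0.50 CPM, each between the Hand2 cKO and the WT libraries. The files list Dlk1 and Rtl1 transcripts in pairs with identical estimated counts, 1 of each pair without a match in the annotation, and both were summed. Another 4 transcripts with such identical counts belong to Gnas, where they hold at most 1.63% of the gene's counts in any library.

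The Peg3 cluster on chromosome 7 holds 3 of the listed genes, which are not all expressed from the same parental copy. All 3 had an unadjusted p below 0.05 in Hand2 cKO, and DESeq2 called 2 of them. Peg3, paternally expressed and at 6703892 to 6730431 on the - strand, encodes a large zinc finger protein. It stood at 1972 and 1741 CPM in WT and at 1116, 647 and 1339 CPM in Hand2 cKO, at a log2 fold change of -0.84 ± 0.31. Its adjusted p was 0.723 by edgeR and 0.360 by DESeq2, and its unadjusted p was above 0.05 without WT 3, without WT 4 and without Hand2 cKO 1. Usp29, paternally expressed from a start beside that of Peg3, is named for a deubiquitinase. It stood at 68.4 and 72.4 CPM in WT and at 46.9, 42.3 and 47.1 CPM in Hand2 cKO, at a log2 fold change of -0.63 ± 0.13. Its adjusted p was 0.460 by edgeR and 0.0205 by DESeq2. With the length trend removed the log2 fold change of Usp29 was -0.46, which is less than 1.5-fold.

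Zim1, at 6671269 to 6696450 on the - strand, is a maternally expressed zinc finger gene of the same cluster. It stood at 101 and 107 CPM in WT and at 33.6, 19.6 and 41.2 CPM in Hand2 cKO. The log2 fold change was -1.73 ± 0.30, with an adjusted p of 0.288 by edgeR and 5.57e-05 by DESeq2. It was also called by edgeR without Hand2 cKO 2, at -1.49 and an adjusted p of 0.0372. Gli2/3 cKO 3 gave intermediate levels: Peg3 held 1540 CPM, Usp29 65.5 CPM and Zim1 78.2 CPM, all above every Hand2 cKO library and below both WT libraries.

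Magel2, at 62377010 to 62381640 on chromosome 7, encodes a partner of ubiquitin ligases and is 1 of the genes lost in Prader-Willi syndrome. It stood at 151 and 187 CPM in WT, at 75.1, 83.0 and 97.9 CPM in Hand2 cKO, and at 85.6 CPM in Gli2/3 cKO 3. The log2 fold change was -0.99 ± 0.18 in Hand2 cKO, with an adjusted p of 0.332 by edgeR and 0.00163 by DESeq2. For Gli2/3 cKO it was -0.98 ± 0.26, and neither edgeR nor DESeq2 called Magel2 there. Both comparisons use the same WT libraries. Ndn, the neighbour of Magel2, stood at 210 and 187 CPM in WT and at 184, 266 and 172 CPM in Hand2 cKO. Its log2 fold change of 0.06 ± 0.23 changed sign without Hand2 cKO 2. For Peg12 all 3 Hand2 cKO libraries, at 49.2, 53.3 and 46.8 CPM, were above both WT libraries, at 43.4 and 38.1 CPM, with an adjusted p of 0.723 by edgeR. Snrpn shares its locus with Snurf, and their reads cannot be told apart with certainty.

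**Figure D2:**
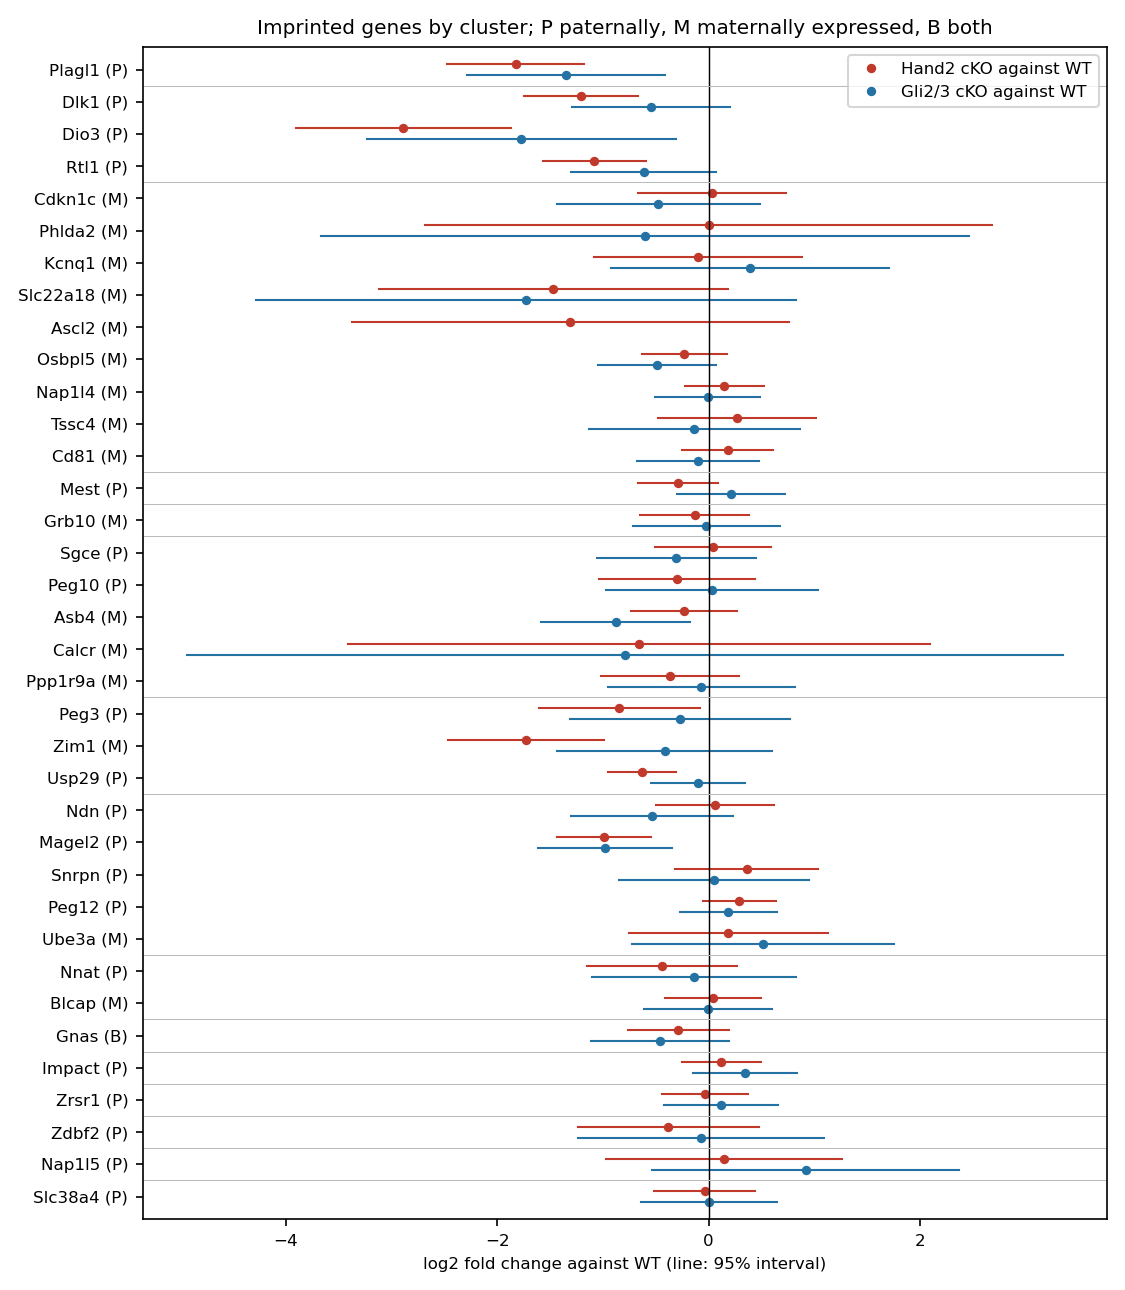
Log2 fold change against WT of the 36 imprinted genes, ordered by cluster, with 95% intervals from edgeR. P, M and B mark paternally, maternally and biallelically derived products; Ascl2 has no point for Gli2/3 cKO, where it had 0 counts. The intervals for Hand2 cKO lie below 0 for the 8 genes described above and span 0 for the others.

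For the remaining 28 imprinted genes the 95% interval in Hand2 cKO spanned 0. Per transcript length, Gnas, Mest, Nnat, Dlk1 and Grb10 held the highest levels of the 36 in WT, each at percentile 99.1 or above among all genes with a level. Mest, a paternally expressed gene of the mesoderm, stood at 2074 and 2261 CPM in WT and at 1693, 1853 and 1778 CPM in Hand2 cKO. All 3 Hand2 cKO libraries were below WT, by a log2 fold change of -0.29 ± 0.16, and Gli2/3 cKO 3, at 2510 CPM, was above both. Grb10, a maternally expressed adaptor that restrains growth factor signalling, stood at 1787 and 1784 CPM in WT, at 1772, 1270 and 1844 CPM in Hand2 cKO and at 1757 CPM in Gli2/3 cKO 3. Only Hand2 cKO 2 was apart, and the log2 fold change of -0.13 ± 0.21 turned to 0.0057 without it.

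Peg10, a retrotransposon-derived gene, had a log2 fold change of -0.30 ± 0.31 in Hand2 cKO, where Hand2 cKO 2 held 592 CPM and the other 5 libraries 1061 to 1191 CPM. Nnat, a small membrane proteolipid, ranged from 740 to 1136 CPM in WT and from 512 to 872 CPM in Hand2 cKO, at -0.44 ± 0.29. Gnas, which encodes the stimulatory G protein alpha subunit, stood at 1592 and 1813 CPM in WT, at 1308, 1652 and 1228 CPM in Hand2 cKO and at 1236 CPM in Gli2/3 cKO 3. Its log2 fold change was -0.29 ± 0.20 in Hand2 cKO and -0.46 ± 0.27 in Gli2/3 cKO. Nap1l4, a histone chaperone of the Kcnq1ot1 domain, differed by 0.15 ± 0.15 in Hand2 cKO and -0.0096 ± 0.20 in Gli2/3 cKO. Of the 9 listed genes of that domain, 8 were lower and 1 higher in Gli2/3 cKO, with a median of -0.48. In Hand2 cKO 4 of the 9 were lower and 5 higher, with a median of 0.00081.

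For the single-gene domains the Hand2 cKO log2 fold changes were 0.12 ± 0.15 for Impact, -0.03 ± 0.17 for Zrsr1, -0.38 ± 0.35 for Zdbf2, 0.14 ± 0.46 for Nap1l5 and -0.04 ± 0.20 for Slc38a4. The Gli2/3 cKO values were 0.35 ± 0.20 for Impact, 0.12 ± 0.22 for Zrsr1, -0.07 ± 0.48 for Zdbf2 and 0.92 ± 0.60 for Nap1l5, which had 9 to 22 counts per library. Slc38a4 was at 87.8 CPM in Gli2/3 cKO 3, between WT 3 at 86.6 and WT 4 at 88.9 CPM. The intervals of all these differences span 0. Cdkn1c, a maternally expressed inhibitor of the cell cycle, stood at 403 and 249 CPM in WT and at 298, 426 and 276 CPM in Hand2 cKO, so the groups overlap. Gli2/3 cKO 3 held 234 CPM of Cdkn1c, below both WT libraries, at a log2 fold change of -0.48 ± 0.40. The other genes not named ranged from -1.47 for Slc22a18, which had 4 to 17 counts per library, to 0.36 for Snrpn in Hand2 cKO, and none had an unadjusted p below 0.05 there.

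Against WT, 5 of the 36 genes were lower in Gli2/3 cKO and 0 higher by an unadjusted p below 0.05, where 2.96% and 1.63% of all genes were so. They were Plagl1, Magel2, Dio3, Asb4 and Ascl2. By edgeR 0 of the 36 and 0.0114% of all genes were called, and by DESeq2 0 of the 36 and 0.813% of all genes. Asb4, a maternally expressed subunit of a ubiquitin ligase, stood at 94.8 CPM against 210 and 139 CPM in WT and 143 to 155 CPM in Hand2 cKO. Ascl2 had 0 counts in Gli2/3 cKO 3 and 7 and 12 counts in the WT libraries. Against a floor of 3 counts in that library it was at least 2.91-fold lower than the WT mean, and WT 3 alone was 1.19 times the floor. Without Hand2 cKO 2, which then no longer enters the estimate of the spread, 11 genes were lower at an unadjusted p below 0.05 and 1 was higher, with 6.56% and 4.24% of all genes. Without WT 3 the lower genes were 3, Ascl2, Dio3 and Magel2, with 3.31% of all genes. Without WT 4 they were also 3, but Asb4, Magel2 and Plagl1, with 2.01% of all genes.

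Between the mutants, 0 of the 36 genes were called by edgeR or DESeq2. Over all 17477 genes tested, edgeR called 0.0343%, and DESeq2 called 42 higher and 102 lower. The genes with an unadjusted p below 0.05 by edgeR were Zim1, Usp29 and Mest, all higher in Gli2/3 cKO 3. Over all genes tested, 499 were higher and 459 lower at that level. The log2 difference was 1.31 (95% interval 0.43 to 2.20) for Zim1, 0.53 (0.12 to 0.93) for Usp29 and 0.50 (0.027 to 0.97) for Mest, with adjusted p-values by edgeR of 0.701, 0.790 and 0.891. For Magel2 the difference was 0.0049, with an interval of -0.57 to 0.58. For Plagl1 it was 0.47, with an interval of -0.34 to 1.28, and for Dlk1 0.66, with an interval of -0.0071 to 1.33.

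By parental class, the 19 paternally expressed genes summed to 8010 and 8381 CPM in WT, to 5666, 5238 and 5963 CPM in Hand2 cKO and to 7504 CPM in Gli2/3 cKO 3. The 16 maternally expressed genes summed to 3217 and 2937 CPM in WT, to 2991, 2621 and 3031 CPM in Hand2 cKO and to 2870 CPM in Gli2/3 cKO 3. The paternal sums of Hand2 cKO did not overlap those of WT, and the maternal sums did. Such sums weigh the most abundant genes most. Mean CPM went from 1857 in WT to 1034 in Hand2 cKO for Peg3 and from 898 to 389 for Dlk1. Grb10, at a mean of 1785 CPM in WT, led the maternal sum. In Hand2 cKO 13 of 19 paternally expressed genes were lower with a median log2 fold change of -0.30, and 9 of 16 maternally expressed genes were lower with a median of -0.12. The median over all genes tested was -0.00016. Without the Dlk1-Dio3, Plagl1 and Peg3 clusters, which hold most of the lower genes, 29 genes of either class and Gnas remained. Of these 29, 16 were lower and 13 higher in Hand2 cKO, with a median of -0.04. The paternal median was -0.17 without Hand2 cKO 2, and the maternal median was 0.074 without WT 3. The difference between the classes was not tested.

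The Gli2/3 cKO medians were -0.10 for the paternally and -0.27 for the maternally expressed genes, and the latter was -0.10 without WT 3. For the 5 maternally expressed genes marked as widely imprinted, the median was -0.48 in Gli2/3 cKO and -0.13 in Hand2 cKO. The Gli2/3 cKO median is the value of Cdkn1c, -0.48 ± 0.40, which ran from -0.78 to -0.086 over the alternatives. Among the 5, Phlda2 and Slc22a18 rest on few counts, 7 to 38 and 4 to 17 per library.

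Against each WT library apart, on a log2(CPM + 0.5) scale, the mean of the Hand2 cKO libraries was lower than WT 3 for 27 of the 36 genes and lower than WT 4 for 24. The medians were -0.21 and -0.14, and the sign differed between the WT libraries for 7 genes. Relative to WT 3, 9 genes were lower by more than 1.5-fold, where 5.55% of all genes were. Relative to WT 4, 11 were, where 9.66% of all genes were. The 8 genes described first were lower against either library, with log2 differences of -2.06 and -1.61 for Plagl1 and of -1.09 and -1.36 for Dlk1. The WT libraries differed from each other by more than 1.5-fold for 6 of the 36 genes and for 11.7% of all genes.

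**Figure D3:**
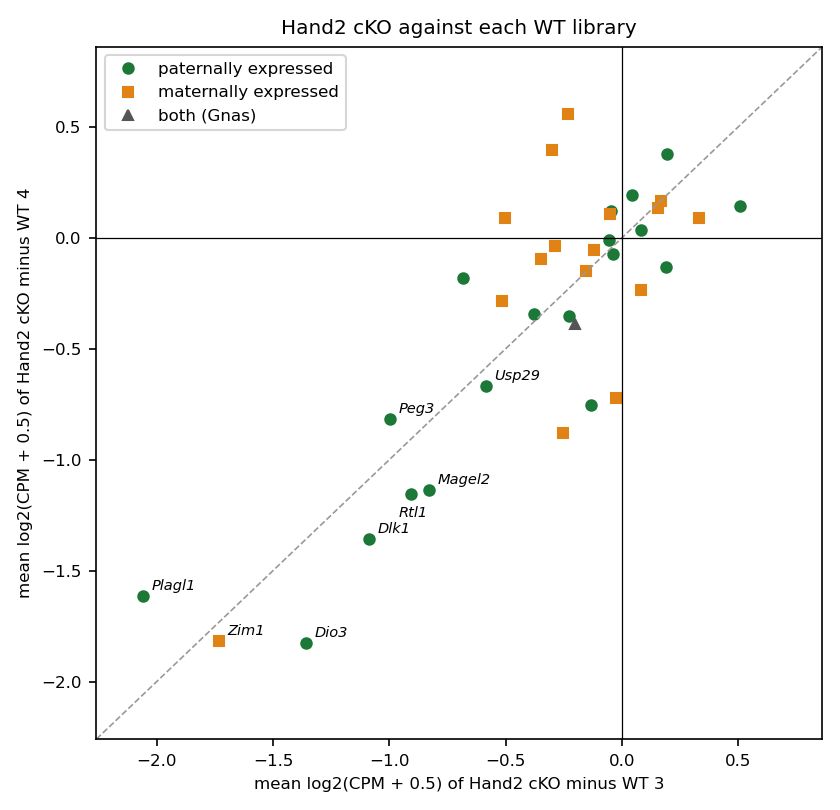
Mean log2(CPM + 0.5) of the 3 Hand2 cKO libraries minus that of WT 3 (x axis) and of WT 4 (y axis) for each imprinted gene, by parental class. The dashed line marks equal differences; the 8 labelled genes lie below 0 on both axes, and 7 genes have opposite signs.

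Genes flanking the clusters were also counted, at 14.0 to 4462 kb from the edge of the cluster, so some are not close neighbours. The nearest 2 tested protein-coding genes on each side, 60 in all without imprinted genes, had a median log2 fold change of 0.04 in Hand2 cKO and 0.03 in the other mutant. At an unadjusted p below 0.05, 3 of the 60 were lower and 0 higher in Hand2 cKO, where 4.02% and 2.44% of all genes were so. The 3 were Phactr2, Mrgpre and Otud7a. DESeq2 called 0 of the 60, against 0.875% of all genes lower and 0.208% higher. Phactr2, a protein phosphatase regulator 76.0 kb from Plagl1, stood at 98.4 and 92.4 CPM in WT and at 52.6, 36.6 and 61.5 CPM in Hand2 cKO. Its log2 fold change was -0.92, with an adjusted p of 0.603 by edgeR. The 4 genes flanking the Dlk1-Dio3 cluster ranged from -0.26 to 0.15, and the 4 flanking the Peg3 cluster from -0.49 to 0.35.

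Of 22 factors that set or keep imprints, 20 were tested and 0 had an unadjusted p below 0.05 in either mutant, and edgeR and DESeq2 called none. Their median log2 fold change was -0.01 in Hand2 cKO, against 0.11 for Gli2/3 cKO. Among them the smallest p in Hand2 cKO was that of Eed, a Polycomb subunit, at a log2 fold change of 0.40 ± 0.18. Trim28, the co-repressor that ZFP57 recruits, stood at 1044 and 1023 CPM in WT and at 1121, 1520 and 1114 CPM in Hand2 cKO.

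Transcripts of an imprinted gene can start from promoters with different parental control, so the split by transcript was examined for Grb10, Plagl1, Gnas and, chosen after its values were seen, Mest. Grb10-201 took 94.7% to 97.3% of the Grb10 counts in 5 libraries and 32.5% in Hand2 cKO 2, where Grb10-203, which starts downstream, took 67.3%. Mest-210, which starts upstream of Mest-211, took 0.27% and 5.23% of the Mest counts in WT. It took 20.5%, 61.2% and 11.5% in Hand2 cKO and 18.8% in Gli2/3 cKO 3. All 3 Hand2 cKO libraries and Gli2/3 cKO 3 were thus above both WT libraries, with Hand2 cKO 2 the highest. Plagl1-202 took 68.5% to 99.1% of the Plagl1 counts, the lowest share in WT 4 and the highest in Hand2 cKO 2. Gnas-208 took 77.2% to 82.1% of the Gnas counts in every library. Estimated counts divide reads among overlapping transcripts, and the part of the length trend of Hand2 cKO 2 in these shares was not tested.

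**Figure D4:**
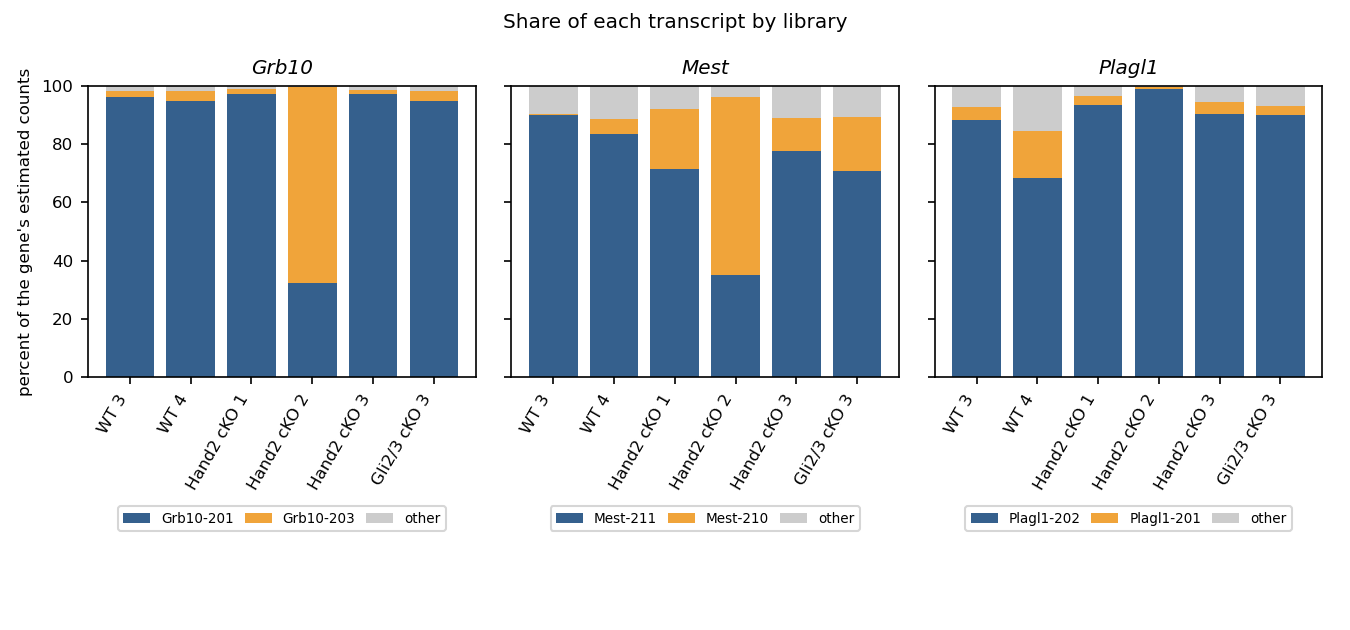
Percent of the estimated counts of Grb10, Mest and Plagl1 assigned to each main transcript, by library; grey is the sum of all others. Hand2 cKO 2 has 67.3% of Grb10 on Grb10-203 and 61.2% of Mest on Mest-210.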

How the data were processed

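Polyadenylated RNA of 6 MNP libraries was used, with groups from the labelled genotype. The authors mapped paired-end reads to mm10, determined transcript abundance in Strand NGS and ran DESeq2 there; its version and the annotation are not stated by the sources. The files the authors deposited hold expected counts for each transcript, estimated by the authors' program and not normalized. The design called for whole counts, so estimated counts were summed per gene symbol and rounded. Near-identical transcripts and overlapping genes share reads, and the split is uncertain. Coordinates are from GENCODE M21.

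17477 genes passed filterByExpr. All 6 libraries entered 1 quasi-likelihood fit in edgeR 4.0.16 (R 4.3.3) with TMM scaling and genotype as the only term, leaving 3 residual degrees of freedom. The lone Gli2/3 cKO library borrows the spread of the others. A gene was called at an adjusted p below 0.05 and a fold above 1.5. CPM use scaled library sizes, and differences to single WT libraries add 0.5 CPM. Alternatives were DESeq2 1.42.0, other scalings, no filter, the compared groups alone, removal of the trend with transcript length, and each library left out. The fit was tested on simulated data.

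The genes, their clusters and the gene lists were chosen with earlier results of these data known. Values are given for genes called by edgeR or DESeq2, for genes past 1.5-fold with groups that do not overlap where the mean log2 CPM was 1 or more, and for the gene with the highest mean CPM of each cluster; flanking genes and imprint factors are named by smallest p. Asb4, Ascl2, Cdkn1c, Peg12 and Trim28 were named after their values were seen. Counts at an unadjusted p without each library were added after the data were seen. Pairs of libraries of 1 group gave 25.8 to 243 chi-square units per degree of freedom, so none was a repeat deposit. The floor of 3 counts covers counting error only.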

Additional observations from a re-analysis of the deposited data

How the results depend on the processing

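In Hand2 cKO against WT, the 0 imprinted genes called by edgeR became 7 with DESeq2, 1 with no filter on low counts and 1 with the length trend removed, and from 0 to 3 without single libraries, the 3 being Plagl1, Dlk1 and Zim1 without Hand2 cKO 2. Plagl1 was the gene called with no filter (adjusted p 0.0327 by edgeR) and with the length trend removed (log2 fold change -1.75, adjusted p 0.0404 by edgeR). The cause of these differences was not tested. The other 2 comparisons kept 0 calls under every alternative run. The paternal median in Hand2 cKO was -0.20 with the length trend removed and ran from -0.40 to -0.17 without single libraries, and the maternal median from -0.18 to 0.074. In Gli2/3 cKO the maternal median was -0.14 in the compared groups alone and ran from -0.28 to -0.10 without single libraries. Between the mutants the paternal median was 0.21 and the maternal -0.062 with the length trend removed, and they ran from 0.15 to 0.48 and from -0.26 to -0.076 without single libraries.

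Recomputed log2 fold changes were compared for genes named by the rules given above, and not for genes named after their values were seen. Of 528 such values, 492 kept their direction and side of the threshold and 12 passed it. The other 24 changed sign, all 24 for genes whose reported value lay between -0.14 and 0.14. Asb4, outside this count, was at -0.24 in Hand2 cKO and ran from -0.50 to 0.090 over the alternatives. In Hand2 cKO, leaving out single libraries gave -0.23 to 0.0057 for Grb10, -0.17 to 0.18 for Ndn, -0.047 to 0.31 for Nap1l5 and -0.15 to 0.095 for Slc38a4, and removing the length trend gave 0.024 for Zrsr1. In Gli2/3 cKO, single libraries gave -0.41 to 0.20 for Nnat and -0.30 to 0.20 for Zdbf2, and removing the length trend gave 0.0060 for Nap1l4. Slc38a4, at 0.00098 in Gli2/3 cKO, was -0.0024 with DESeq2 and with its size factors in edgeR, -0.0070 with upper-quartile scaling, -0.0034 with no filter, -0.00041 in the compared groups alone, -0.0042 with the length trend removed and -0.017 to 0.020 without single libraries. The Magel2 difference between the mutants was -0.0038 with DESeq2 and with its size factors in edgeR, -5.3e-05 with no filter, -0.070 with the length trend removed and -0.081 to 0.11 without single libraries. No paired analysis was possible because the libraries with files share only the replicate number 3 between groups. Dio3, Ascl2, Calcr, Slc22a18, Phlda2 and Nap1l5 rest on few counts, so differences in them were not detectable at this depth unless large.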

Other observations

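Imprinted genes outside the 42, leaving out Igf2, Igf2r, Ins1 and Ins2, were counted as a comparison. Of 30 such genes in the list, 28 were tested. Their median log2 fold change was -0.09 in Hand2 cKO and 0.02 in Gli2/3 cKO. At an unadjusted p below 0.05, 3 were lower and 1 higher in Hand2 cKO, where 4.02% and 2.44% of all genes were so. DESeq2 called 2 lower, against 0.875% of all genes. The higher gene was Snurf, at a log2 fold change of 1.19, whose reads cannot be told apart with certainty from those of Snrpn. Klf14, a maternally expressed zinc finger gene, stood at 4.58 and 4.73 CPM in WT, at 0.64, 0.63 and 0.34 CPM in Hand2 cKO and at 2.03 CPM in Gli2/3 cKO 3. Its log2 fold change in Hand2 cKO was -3.10 ± 0.35, with an adjusted p of 0.119 by edgeR and 5.60e-10 by DESeq2. Adam23, a cell surface protein of the ADAM family, stood at 26.1 and 22.3 CPM in WT and at 12.2, 7.65 and 13.1 CPM in Hand2 cKO, with an adjusted p of 0.526 by edgeR and 0.0202 by DESeq2. Klf14 and Adam23 were named by their smallest p, and Snurf as the higher gene, all after the values were seen.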
